A study of Mus musculus with 383 samples.

Results

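Clustered protocadherins are cell-surface adhesion proteins of neurons, encoded side by side in 3 gene clusters called alpha, beta and gamma. Each alternate isoform of the alpha and gamma clusters has its own promoter and its own large first exon, which is spliced to constant exons that all isoforms of the cluster share, whereas a beta gene is a single exon. A neuron is known to switch on only some of the alternate promoters, through CTCF and cohesin looping, with DNA methylation holding other promoters silent. The C-type isoforms at the ends of the alpha and gamma clusters are known to be used in a more regular way, by cell type. Isoforms meet their own kind on a neighbouring cell, so that the combination a neuron makes serves to tell its branches from those of other neurons. The members were all rows of the count table whose symbol names an isoform of these clusters: 54 of 29779 rows. They were 10 alternate alpha isoforms, 22 beta isoforms, 11 gamma A isoforms, 6 gamma B isoforms and the 5 C-type isoforms Pcdhac1, Pcdhac2, Pcdhgc3, Pcdhgc4 and Pcdhgc5. Pcdha10, Pcdha11, Pcdhga10 and Pcdhgb8 were not analysed here.

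The series holds single nuclei of the vagal dorsal motor nucleus (DMV), the brainstem home of the preganglionic motor neurons that reach the gut and other viscera. All nuclei form 1 group. They came from male Chat-IRES-Cre mice on a C57Bl6/j background, in which Cre is made wherever choline acetyltransferase is, injected with 100 nL of AAV9-DIO-H2b-mCherry, a virus that gives Cre-positive nuclei a red label. Mice were injected at 10 weeks, tissue was taken 16 days later, pooled, and mCherry-positive nuclei were sorted 1 to a well. The design text gives an age of 12 weeks, and 1 protocol speaks of sections around the SCN although the tissue is named as DMV. The labels name no animal, so the series is 1 sample, nuclei are not replicates, and no test between nuclei was run.

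Of 383 libraries, the 316 with at least 1000 genes with a read were used. They held 1590 to 4699420 reads, with a median of 1440075. The 3 cholinergic genes Chat, Slc18a3 and Slc5a7 all had a read in 286 libraries (90.5%). Lists of markers of other cell types reached median shares of libraries of 8.86% (ependymal cells) to 41.8% (catecholaminergic neurons). Each library was amplified without molecular identifiers, so intervals below are 95% intervals that cover counting error over libraries only. Reads of 1 nucleus are not separate molecules, and a read in a nucleus may come from unspliced RNA.

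Before the isoforms were described, libraries were compared with each other over 5000 variable genes with the members left out. In 11 pairs, 22 libraries in all, the correlation was 0.960 to 0.997, whereas it was at most 0.837 over the pairs of other libraries, apart from 5 further pairs at 0.850 to 0.889. Of the 11 pairs, 9 had consecutive nucleus numbers. The 16 pairs took in 28 libraries. The 2 libraries of a pair differed by more than sampling noise, with a chi-square of 1.31 to 3.49 per gene against a median of 70.9 over all pairs, so they were not merged. What made them alike was not tested. Each result is therefore given over all 316 libraries and, where it moves, over the 305 with 1 library of each near-identical pair, or the 288 with none of the 28.

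The clusters lie next to each other on mouse chromosome 18. In build GRCm38, with the GENCODE M21 annotation, the measured alpha genes span chr18:36930184-37187661, the beta genes chr18:37264938-37524479 and the gamma genes chr18:37661793-37841873. First exons, which carry the isoform's own part of the transcript, were 2346 to 8695 bases long with a median of 2961. The longest annotated first exon was taken. For some alpha and gamma isoforms, among them Pcdha4, Pcdhgb5, Pcdhga12 and Pcdhgc4, it came from a transcript model of 1 exon. Such a length may differ from that of the first exon spliced to the constant exons. Reads from the constant exons of the alpha and gamma clusters cannot be assigned to an isoform, and how the submitters counted them is not given in the sources used here. Of the 50-base stretches of a first exon, up to 23.4% occurred in the first exon of another of the 54 isoforms. Other genes and other exons were not searched. That highest share was for Pcdha7, which shares them with Pcdha8. Over the alternate alpha isoforms the shared part was 9.77% to 23.4%, over the beta isoforms 0 to 12.0%, and it was 0 for all 5 C-type isoforms. Shares and reads of isoforms with much shared sequence, Pcdha7 and Pcdha8 above all, are uncertain for that reason. Where the 11 isoforms with at least 10% shared stretches were set beside the gene they share most with, 7 of 11 were found together more often than the product of their shares gives, with ratios from 0.614 to 2.01, and for Pcdha7 with Pcdha8 the ratio was 0.664 (0.137 to 1.94). Pcdha3 with Pcdha5, Pcdha7 with Pcdha8 and Pcdhgb1 with Pcdhgb2 are counted from both sides among the 11. Over pairs of all other genes with shares in the members' range, the median ratio was 1.09.

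Every one of the 54 isoforms was found in at least 8 libraries, and most were found in a small part of them. The share of libraries with a read ran from 2.53% for Pcdhb1 to 52.5% for Pcdhgc4, with a median of 14.7%. In at least 10% of libraries, 37 of the 54 isoforms had a read, against 63.1% of all genes in the table. In at least 50% of libraries, 1 isoform had a read, against 35.2% of all genes. Where an isoform was found, its median number of reads was 3 to 46, and the middle of these medians was 13, against 11 over all genes. The median share over all genes with a read in any library was 22.8%, against 14.7% over the isoforms. Thus the isoforms reached 10% of libraries about as often as other genes but seldom reached 50%. Where they were seen, they had about as many reads as other genes. All isoforms together made up a median of 154.9 RPM (reads for every 1000000 reads of the library), with quartiles of 94.7 and 236.3 and a highest value of 586.2. Leaving out the 28 libraries moved no isoform's share by more than 3.17 percentage points.

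**Figure D1:**
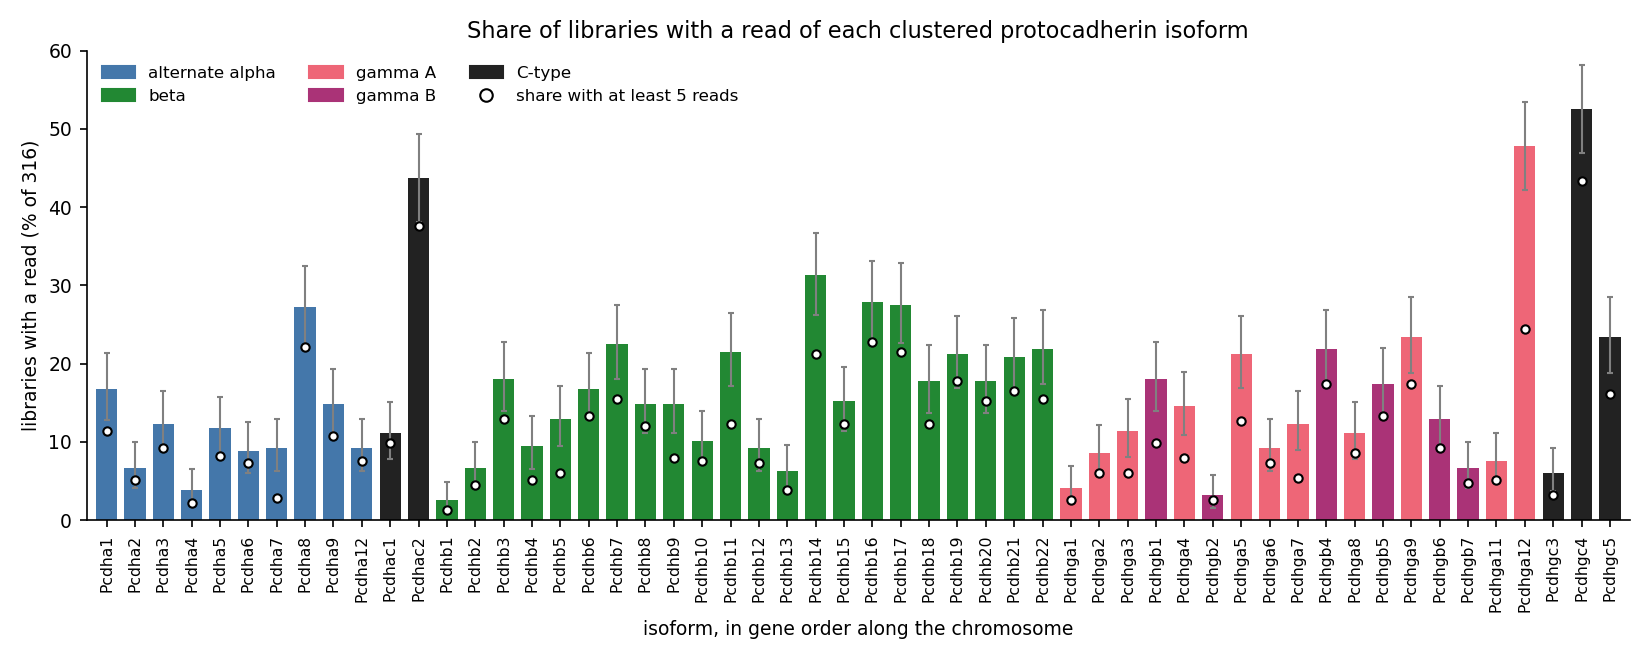
Share of the 316 libraries with a read (bars, % with exact 95% Clopper-Pearson intervals) for each of the 54 isoforms in gene order, coloured by group, with the share at 5 or more reads as open circles. Pcdhgc4 (52.5%), Pcdhga12 (47.8%) and Pcdhac2 (43.7%) stand above the other isoforms, and the circle of Pcdhga12 lies far below its bar.

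Among the C-type isoforms, Pcdhgc4 and Pcdhac2 were the most widely found. Pcdhgc4, an isoform that some neurons need to survive, had a read in 166 libraries (52.5%, 46.9 to 58.1), with a median of 23 reads where found and at most 223. Pcdhac2, the isoform on which serotonergic neurons rely to spread their axons, had a read in 138 libraries (43.7%, 38.1 to 49.3), with a median of 21.5 reads and at most 123. With at least 5 reads, their shares were 43.4% and 37.7%. Pcdhgc5 had a read in 74 libraries (23.4%, 18.9 to 28.5) with a median of 12 reads. Pcdhac1 had a read in 35 libraries (11.1%, 7.84 to 15.1) with a median of 13 reads. Pcdhgc3, whose tail binds the Wnt pathway scaffold Axin1, had a read in 19 libraries (6.01%, 3.66 to 9.23) with a median of 6 reads. Of the 5, 3 lay above the median share of 14.7% and 2 below it.

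Among the alternate alpha isoforms, Pcdha8 was found most often, in 86 libraries (27.2%, 22.4 to 32.5), followed by Pcdha1 (16.8%) and Pcdha9 (14.9%). Pcdha4 (3.80%) and Pcdha2 (6.65%) were found least often. The interval of Pcdha8 lay above those of Pcdha1 and Pcdha9, which overlapped each other. Alpha isoforms need another isoform to carry them to the cell surface.

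The beta isoforms held 53.0% of all reads on the 54 genes. Pcdhb14 (31.3%, 26.3 to 36.8), Pcdhb16 (27.8%, 23.0 to 33.1) and Pcdhb17 (27.5%, 22.7 to 32.8) were found most often, with intervals that overlapped. Pcdhb1 (2.53%, 1.10 to 4.93) and Pcdhb13 (6.33%, 3.91 to 9.61) were found least often. Pcdhb19 was found in 67 libraries and had the highest median of reads where found, 46, and the highest single value, 387 reads. Its first exon is 7138 bases long, that of Pcdhb14 8695 bases and that of Pcdhb1 2588 bases. Over the 54 isoforms, the share rose with the length of the first exon, with a Spearman rho of 0.43. This is a correlation across genes of 1 sample that share libraries and depth, given with no test. Some of the alpha and gamma lengths in it come from transcript models of 1 exon.

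Among the gamma A isoforms, Pcdhga12, the last alternate isoform before the gamma C-type genes, had a read in 151 libraries (47.8%, 42.2 to 53.4). Of these detections, 32.5% rested on 1 read, and with at least 5 reads its share was 24.4%. For Pcdhgc4 and Pcdhac2, 5.42% and 6.52% of detections rested on 1 read. The gene Gm26672 runs on the opposite strand over the first exons of Pcdhgb7, Pcdhga11 and Pcdhga12 and had a read in 26.6% of libraries. In thinned libraries it was found together with any of these 3 isoforms in 29 libraries against 30.8 from the product of the shares. Whether reads were counted by strand is not given in the sources used here. Pcdhga9 (23.4%) and Pcdhga5 (21.2%) came next, and Pcdhga1 (4.11%) and Pcdhga11 (7.59%) were found least often. Among the gamma B isoforms, Pcdhgb4 (21.8%), Pcdhgb1 (18.0%) and Pcdhgb5 (17.4%) were found most often and Pcdhgb2 (3.16%) and Pcdhgb7 (6.65%) least often. Pcdhgb2 was found in 10 libraries, in none of them by a single read, with a median of 27 reads. The gamma A isoforms held 13.2% of the reads on the 54 genes, the gamma B isoforms 7.85%, the alternate alpha isoforms 11.1% and the C-type isoforms 14.9%.

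Gm10545 and Gm37446, 2 further genes on the opposite strand, overlap a first exon and were found in over 10% of libraries. Gm10545, which overlaps the first exon of Pcdha12, was found with it in 8 libraries against 3.90 from the product of the shares, a ratio of 2.05 (0.886 to 4.04). Gm37446, which overlaps Pcdhb12, was found with it in 9 libraries against 3.42, a ratio of 2.63 (1.20 to 5.00). Reads from both strands cannot be told apart there, and the shares of Pcdha12 (9.18%) and Pcdhb12 (9.18%) are uncertain.

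A library held a median of 8 isoforms (interval of the median 8 to 9), with quartiles of 6 and 12. Of 316 libraries, 7 held none and 301 held at least 2. Of the 7, nuclei 336, 383, 144, 165 and 91 were shallow, with 1590 to 202379 reads in all. Nuclei 374 and 147 had 663357 and 1250093 reads. The highest numbers were 28 isoforms in nucleus 16, 25 in nucleus 377 and 24 in nucleus 258. Nucleus 377 had 16623 genes with a read, the most of any library, and belongs to 3 of the 16 pairs above. After libraries were thinned to 500000 reads, with 21 shallower ones left out, the median was 7 (7 to 8), with quartiles of 5 and 10 and a highest number of 23. With at least 5 reads the median was 6, and with at least 10 reads it was 5. The number thus depends on how many reads count as detection. Across the 316 libraries the number had a Spearman rho of 0.12 with total reads and of 0.38 with the number of genes with a read, given as descriptions of libraries of 1 sample.

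By group, the median library held 1 of 10 alternate alpha isoforms, 3 of 22 beta isoforms, 2 of 17 alternate gamma isoforms and 1 of 5 C-type isoforms. No alternate alpha isoform was found in 110 libraries (34.8%, 29.6 to 40.3), exactly 1 in 93 and at least 2 in 113. No beta isoform was found in 36 libraries (11.4%, 8.11 to 15.4) and no alternate gamma isoform in 38 (12.0%, 8.65 to 16.1). No C-type isoform was found in 73 libraries (23.1%, 18.6 to 28.1). The numbers in the groups went together weakly: in thinned libraries, Spearman's rho between groups ran from 0.09 for alternate gamma with C-type to 0.20 for beta with C-type.

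Nuclei carry numbers from 1 to 384, and since the labels name no plate, 4 blocks of 96 consecutive numbers were set side by side. The median library of numbers 193 to 288 held 11 isoforms, against 8, 8 and 7 in the other blocks. In thinned libraries these medians were 9 against 7, 7 and 7. Of the 28 libraries in the pairs, 20 had numbers from 193 to 288. Without the 28, the medians of thinned libraries were again 9 against 7, 7 and 7. The median number of genes with a read in thinned libraries was 10484 in numbers 193 to 288, against 10178, 10348.5 and 9810. The part of total gene detection in this difference was not tested.

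**Figure D2:**
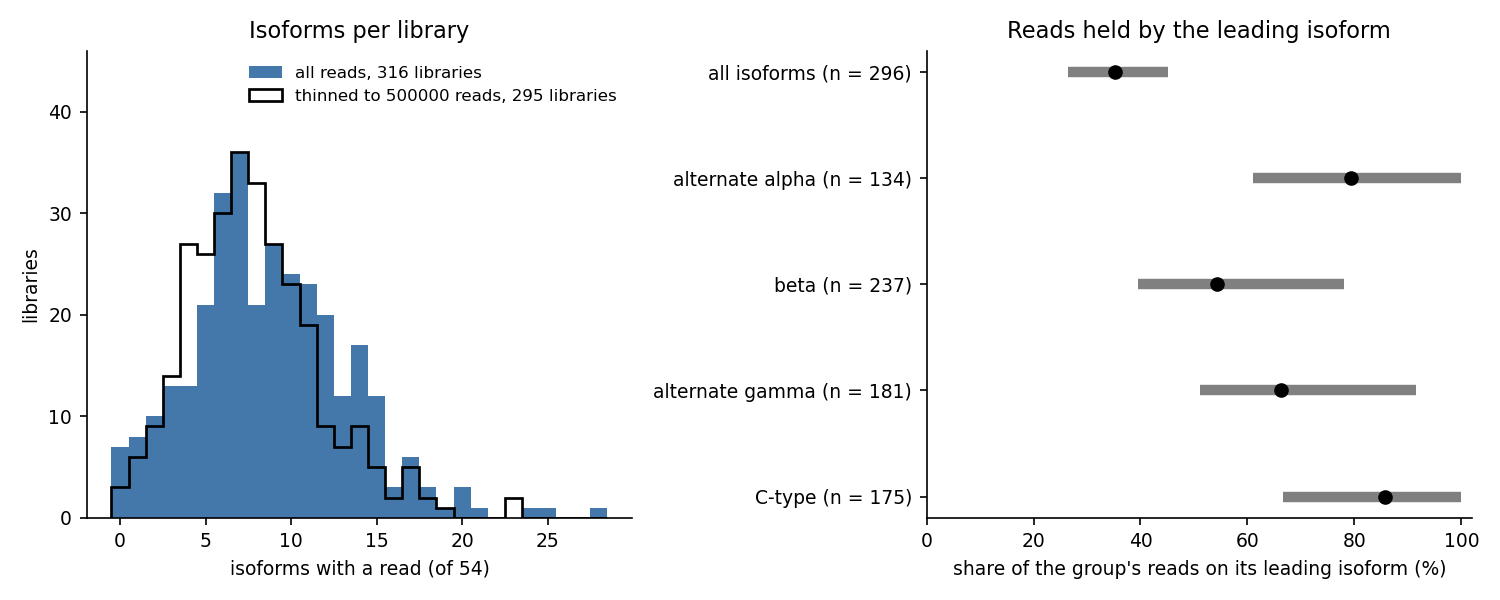
Left, number of libraries (y axis) by number of isoforms with a read (x axis), over 316 libraries with all reads (filled) and 295 libraries thinned to 500000 reads (line). Right, percent of a group's reads that lay on its leading isoform, median (point) and quartiles (bar) over libraries with at least 20 reads in the group. The median was 35.2% over all 54 isoforms and 85.7% over the 5 C-type isoforms. Groups of unlike size do not compare like with like.

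Within a library, reads were shared out unequally between isoforms. Over the 296 libraries with at least 20 reads on the 54 genes, the leading isoform held a median of 35.2% of them (32.9 to 37.6). Each group holds fewer isoforms than the 54, so a larger part on its leading isoform follows in large part from the division. Within groups this part was a median of 79.4% of alternate alpha reads (134 libraries) and 54.3% of beta reads (237 libraries). It was 66.3% of alternate gamma reads (181 libraries) and 85.7% of C-type reads (175 libraries). All alternate alpha reads lay on 1 isoform in 42 of 134 libraries (31.3%), against 21 of 237 for beta (8.86%) and 25 of 181 for alternate gamma (13.8%). The groups hold 10, 22 and 17 isoforms, and the C-type group 5, so these shares do not compare like with like. Sets of other genes of like size were not measured. Of the 54 isoforms, 45 led in at least 1 library. Pcdhgc4 led most often, in 29 libraries, followed by Pcdhb19 in 24 and Pcdhac2 in 18. Pcdhgb4 and Pcdhb17 led in 17 libraries each.

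Almost every library had a combination of its own. The 309 libraries with an isoform held 306 distinct combinations, of which 303 were found once. The 3 combinations found in 2 libraries each were Pcdhgc4 alone, Pcdhb19 alone, and a set of 6 isoforms. Of the 2 libraries with Pcdhb19 alone, nucleus 127 held 3 isoform reads. The other, nucleus 304, held 1 isoform read among 9940 reads in all. That set of 6, Pcdha8, Pcdhgb4, Pcdhga8, Pcdhga9, Pcdhgb6 and Pcdhga12, was found in nuclei 253 and 254, a near-identical pair. With 1 library of each near-identical pair, 298 libraries held 296 distinct combinations. With at least 5 reads, 299 libraries held 297. Combinations of other genes with like shares were not counted, so these numbers are not shown to be particular to the isoforms.

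Smaller groups repeated more often. The 206 libraries with an alternate alpha isoform held 74 sets, 280 libraries with a beta isoform held 241, and 278 libraries with an alternate gamma isoform held 195. The 243 libraries with a C-type isoform held 25 sets. The most common were Pcdhgc4 alone in 56 libraries (17.7%, 13.7 to 22.4), Pcdhac2 with Pcdhgc4 in 51 (16.1%, 12.3 to 20.7) and Pcdhac2 alone in 33 (10.4%, 7.30 to 14.4). All 5 C-type isoforms were found together in 1 library. Among thinned libraries, Pcdhac2 and Pcdhgc4 were found together in 72, against 61.1 from the product of their shares, a ratio of 1.18. That is near the ratio of 1.12 over pairs of all other genes with shares in the members' range.

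Any 2 libraries had few isoforms in common. The Jaccard index, which is the number of shared isoforms over the number found in either library, had a median of 0.111 over 49733 pairs of libraries outside the 16 pairs, and 99% of them lay at or below 0.375. No isoform was shared in 21.3% of these pairs. The index was not computed over other genes with like shares. The most alike of them with at least 5 isoforms each were nuclei 128 and 300, at 0.667. Both held Pcdhac2 (41 and 9 reads), Pcdhb8 (22 and 3 reads), Pcdhb14 (3 and 72 reads), Pcdhb19 (45 and 45 reads), Pcdhgb5 (9 and 15 reads), Pcdhga12 (3 and 16 reads), Pcdhgc4 (115 and 63 reads) and Pcdhgc5 (3 and 19 reads). Nucleus 128 also held Pcdhga4, and nucleus 300 also held Pcdha8, Pcdhb21 and Pcdhga7.

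In the 11 near-identical pairs, found without the members, the Jaccard index was 0.500 to 1 with a median of 0.875. In these pairs 116 of the 122 isoforms with at least 5 reads in the deeper library (95.1%) had a read in the shallower one, and 128 of the 135 isoforms of the shallower libraries (94.8%) had a read in the deeper one. In nuclei 253 and 254, the reads were 64 and 23 for Pcdha8, 150 and 48 for Pcdhgb4, 20 and 14 for Pcdhga8, 62 and 19 for Pcdhga9, 25 and 4 for Pcdhgb6 and 6 and 1 for Pcdhga12. In nuclei 229 and 230, Pcdhb16 had 231 and 78 reads, Pcdhb11 202 and 66 reads, Pcdhb22 193 and 95 reads, Pcdhb20 141 and 49 reads and Pcdhgb5 140 and 49 reads. Nucleus 229 had 4132838 reads in all and nucleus 230 had 1548849. Libraries picked for nearly the same transcriptome also held nearly the same isoforms. No other set of genes was set beside the isoforms here, so this likeness is not shown to be particular to them. The lowest index, 0.500, was that of nuclei 245 and 246, which held 6 isoforms each and shared 4.

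**Figure D3:**
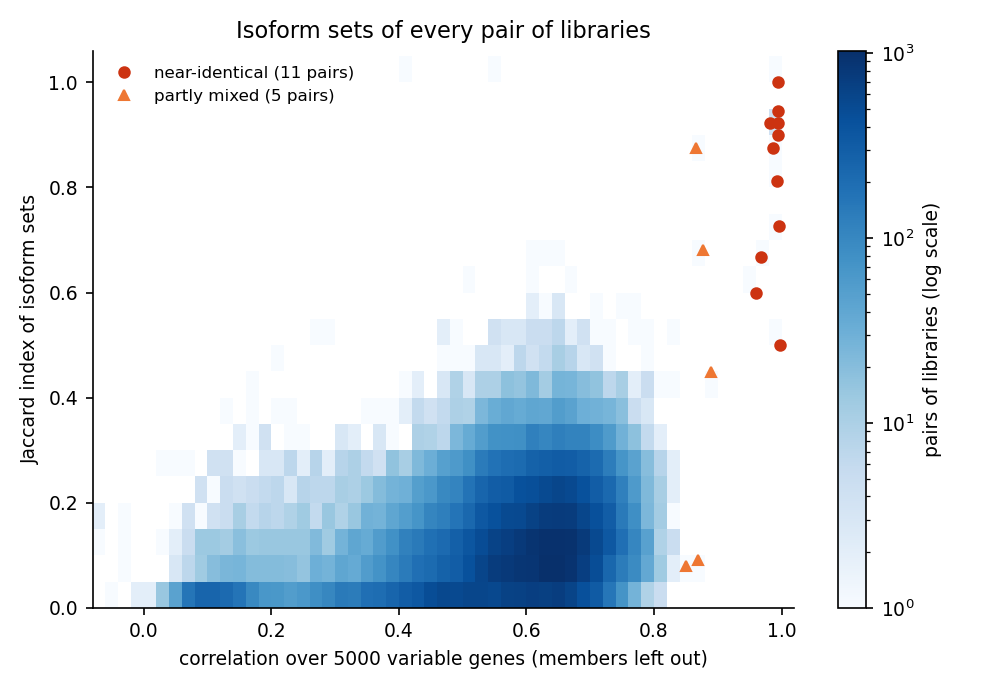
Jaccard index of the isoform sets (y axis) against the correlation over 5000 variable genes without the members (x axis) for every pair of libraries, as counts of pairs in bins (blue, log scale). Marked are the 11 near-identical pairs (red circles) and the 5 further pairs of lower correlation (orange triangles). The legend calls these 5 partly mixed, but they were set apart by correlation only, and mixing was not tested. The near-identical pairs lie at an index of 0.500 to 1, whereas the median over other pairs was 0.111.

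Isoforms of the beta cluster were found in the same library more often than their shares give. For each pair of isoforms, the number of thinned libraries with both was divided by the number that the product of their shares gives. Over pairs in different clusters, 6303 joint findings stood against 5743.4, a ratio of 1.10 (1.07 to 1.12). Over 134947806 pairs of all other genes with shares of 1.36% to 50.5% the same ratio was 1.12, so pairs between clusters lay near that background. Over neighbouring isoforms of a cluster the ratio was 1.37 (1.25 to 1.51), and over isoforms of a cluster further apart 1.24 (1.20 to 1.28). Beta neighbours had a ratio of 1.57 (1.37 to 1.78) and beta isoforms further apart 1.34 (1.28 to 1.40). In the alpha cluster these ratios were 1.27 (0.956 to 1.64) and 1.12 (0.996 to 1.25), and in the gamma cluster 1.17 (0.976 to 1.38) and 1.15 (1.08 to 1.21). Pairs share libraries and isoforms, so these intervals are too narrow. Without the 28 libraries the ratio was 1.36 over all neighbours and 1.56 over beta neighbours.

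The ratio over beta pairs was 1.57 for neighbours, 1.54 at 2 steps, 1.31 at 3 steps, 1.44 at 4 steps, 1.48 at 5 steps and 1.21 (1.10 to 1.33) over pairs more than 10 steps apart. Around the isoform that led the beta reads of a library, the isoform just upstream was found in 42 libraries against 31.7 from its share, a ratio of 1.32 (0.954 to 1.79), and the isoform just downstream in 38 against 29.1, a ratio of 1.31 (0.926 to 1.80). Both sides of the leading gene were thus alike within these intervals.

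The map of isoform pairs holds a block of 6 beta genes, Pcdhb4 to Pcdhb9, named after its values were seen and given no test. Its 15 pairs were found jointly 177 times against 74.7, a ratio of 2.37 (2.03 to 2.75), and all 15 single ratios were above 1, from 1.04 for Pcdhb7 with Pcdhb8 to 3.94 for Pcdhb5 with Pcdhb9. The other 216 beta pairs had a ratio of 1.31 (1.25 to 1.37). Without the 28 libraries the block's ratio was 2.30. With at least 5 reads it was 1.91 (1.39 to 2.56), and 10 of 15 pairs were above 1. Of 295 thinned libraries, 170 held no isoform of the block, 65 held exactly 1 and 60 held at least 2. At least 3 were held by 29 libraries and at least 4 by 13. Such a library counts in several pairs, so the 15 pairs are not separate findings and the block's intervals are too narrow. In nucleus 261, which forms a near-identical pair with nucleus 262, Pcdhb6 had 314 reads, Pcdhb7 243, Pcdhb8 121, Pcdhb9 26, Pcdhb5 10 and Pcdhb4 3. In nucleus 247, Pcdhb4 had 39 reads, Pcdhb6 15, Pcdhb9 12, Pcdhb5 8 and Pcdhb7 3. The isoforms of the block thus differed widely in reads within a library. The isoforms of the block share 3.35% to 8.75% of their 50-base stretches with the first exon of another isoform. For each of Pcdhb5 to Pcdhb9 the isoform shared with most lies within the block, and for Pcdhb4 it is Pcdhb11. A single read made up 31.9% of the detections of Pcdhb9 and 26.8% of those of Pcdhb5. The part of shared sequence in the joint findings was not tested.

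**Figure D4:**
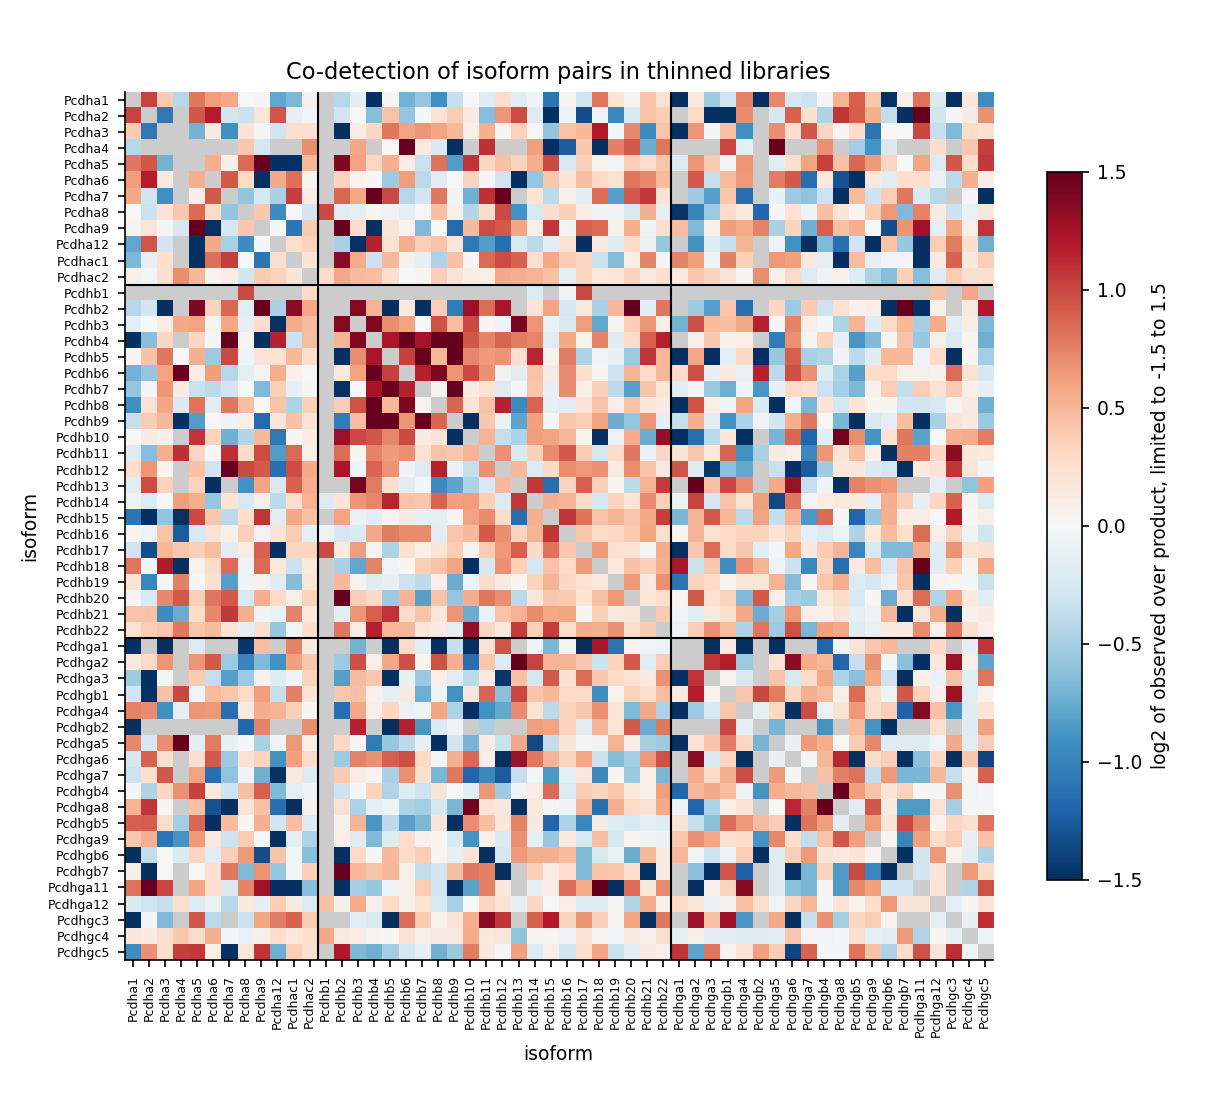
Log2 of the number of thinned libraries with both isoforms over the number that the product of their shares gives (colour, limited to -1.5 to 1.5) for every pair of the 54 isoforms in gene order on both axes, with black lines between the alpha, beta and gamma clusters and grey where the product is under 1. The square of Pcdhb4 to Pcdhb9 is the most evenly red part of the beta cluster, with a ratio of 2.37 over its pairs.

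Of the 231 pairs whose product was at least 10 libraries, the 5 highest ratios included 4 beta pairs. Pcdhb15 and Pcdhb16, which are neighbours, were found together in 24 libraries against 11.4, a ratio of 2.11 (1.35 to 3.14). Pcdhb11 with Pcdhb16 (1.89), Pcdhb8 with Pcdhb14 (1.83), Pcdhgb5 with Pcdhgc5 (1.77) and Pcdhb15 with Pcdhb17 (1.76) followed. Without the 28 libraries the ratio of Pcdhgb5 with Pcdhgc5 was 1.43 and that of Pcdhb8 with Pcdhb14 was 2.05. The lowest ratios were those of Pcdhb14 with Pcdhga5, 0.393 (0.144 to 0.855) from 6 libraries against 15.3, Pcdhb17 with Pcdhgb5 (0.509), Pcdhb7 with Pcdhb20 (0.567), Pcdhac2 with Pcdhgb6 (0.642) and Pcdhb22 with Pcdhga5 (0.684). These pairs were chosen for their ratios, which are descriptions. Among pairs of C-type isoforms, Pcdhgc4 with its neighbour Pcdhgc5 had 31 joint findings against 32.3 (0.959), Pcdhac2 with Pcdhgc5 31 against 26.3 (1.18), and Pcdhac1 with its neighbour Pcdhac2 15 against 13.1 (1.14).

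The genes known to set the choice of a promoter were found in most libraries. Of 20 listed regulators, 17 had a read in over 50% of libraries, and the median share was 91.5%. Of all genes in the table, 35.2% had a read in at least 50% of libraries. The listed genes were picked for known roles, and no other lists of like size were set beside them. Ctcf, which binds at the alternate promoters and their enhancers, was found in 84.2% of libraries, and Rad21, a cohesin subunit, in 81.0%. Smchd1, a chromatin protein that silences the clusters, was found in 95.3%. Dnmt3b, the DNA methyltransferase that marks silent alternate promoters during development, was found in 23.4% (18.9 to 28.5), the lowest share of the list. The partners and signalling proteins were found as widely: all 19 had a read in over 50% of libraries, among them Ptk2 (98.4%) and Ptk2b (50.9%), kinases that clustered protocadherins bind and inhibit, and Celsr3 (97.2%), a cadherin that guides axons. Of 11 non-clustered protocadherins, which have their own single promoters, 7 were found in over 50% of libraries, with a median of 72.5%, against a median of 14.7% over the clustered isoforms.

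Libraries were grouped by clusters built without the members. The 23 libraries of 1 cluster were called somatic-like, since somatic motor markers were found there in a mean of 41.3% of libraries and visceral ones in 10.4%. The other 11 clusters, 293 libraries, were called visceral-like, with visceral markers in 37.1% to 66.7% and somatic ones in 6.86% to 25.6%. These are clusters of 1 sample, and none of the 10 leading genes of any of the 12 was a visceral or somatic marker. Th was among the 10 leading genes of 1 visceral-like cluster. Shares were compared over thinned libraries, 23 and 272. The median number of isoforms was 9 (7 to 10) in somatic-like and 7 (7 to 8) in visceral-like libraries, with intervals that overlapped.

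Pcdhac2 and Pcdhgc4 were found less often in the somatic-like libraries. Such differences were about as frequent among the isoforms as among all genes, as given below. Pcdhac2 had a read in 3 of 23 (13.0%, 2.78 to 33.6) against 118 of 272 (43.4%, 37.4 to 49.5), a difference of -30.3 percentage points. Its summed level was 3.74 against 9.96 RPM. Pcdhgc4 had a read in 6 of 23 (26.1%, 10.2 to 48.4) against 143 of 272 (52.6%, 46.5 to 58.6), a difference of -26.5 points, and its summed levels were 11.7 and 12.8 RPM. A single somatic-like library held 223 Pcdhgc4 reads. Without that library, chosen after its value was seen, the somatic-like level of Pcdhgc4 was 7.36 RPM and its share 22.7% (5 of 22). With all reads, Pcdhac2 was found in 5 somatic-like libraries, with 1 to 58 reads and a median of 21, and in 133 visceral-like ones, with 1 to 123 reads and a median of 22. Both isoforms had the lower share in somatic-like libraries in all 4 blocks, each with 4 to 7 somatic-like libraries. None of the 28 libraries of the pairs was somatic-like.

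At least 20 points lower in somatic-like libraries were 2 of 54 isoforms, against 3.73% of all genes, which is about the same part. At least 20 points higher were 0 of 54, against 2.52% of all genes. With 1 sample there is no test. Pcdhgc4 fell short of the rule with at least 5 reads (-19.3 points) and without thinning (-19.1 points), whereas Pcdhac2 passed it under both (-23.3 and -23.7 points). The median difference over the 54 isoforms was 0.02 points, against -0.75 over all genes. Pcdhb17 lay just under the rule, at 43.5% (23.2 to 65.5) against 23.5% (18.6 to 29.0), 19.9 points. It passed with 1 library of each near-identical pair (20.6 points), without the 28 libraries (20.8 points) and without thinning (21.9 points). Pcdhb21 (34.8% and 17.3%), Pcdhga12 (52.2% and 35.7%) and Pcdhb9 (26.1% and 10.3%) followed. None of the 20 regulators passed the rule: Ctcf was found in 69.6% and 78.7%, Rad21 in 87.0% and 78.3%, Smchd1 in 95.7% and 93.4%, and Dnmt3b in 13.0% and 19.9%. Of the partners, 1 of 19 was lower, Marcks (34.8% and 77.9%), an actin-binding protein that sits on the inner side of the plasma membrane. Of the non-clustered protocadherins, Pcdh1 was lower (43.5% and 70.6%) and Pcdh20 higher (26.1% and 4.41%). Ptk2b was found in 26.1% and 43.8%, Ptk2 in 100% of both and Celsr3 in 100% and 98.9%.

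**Figure D5:**
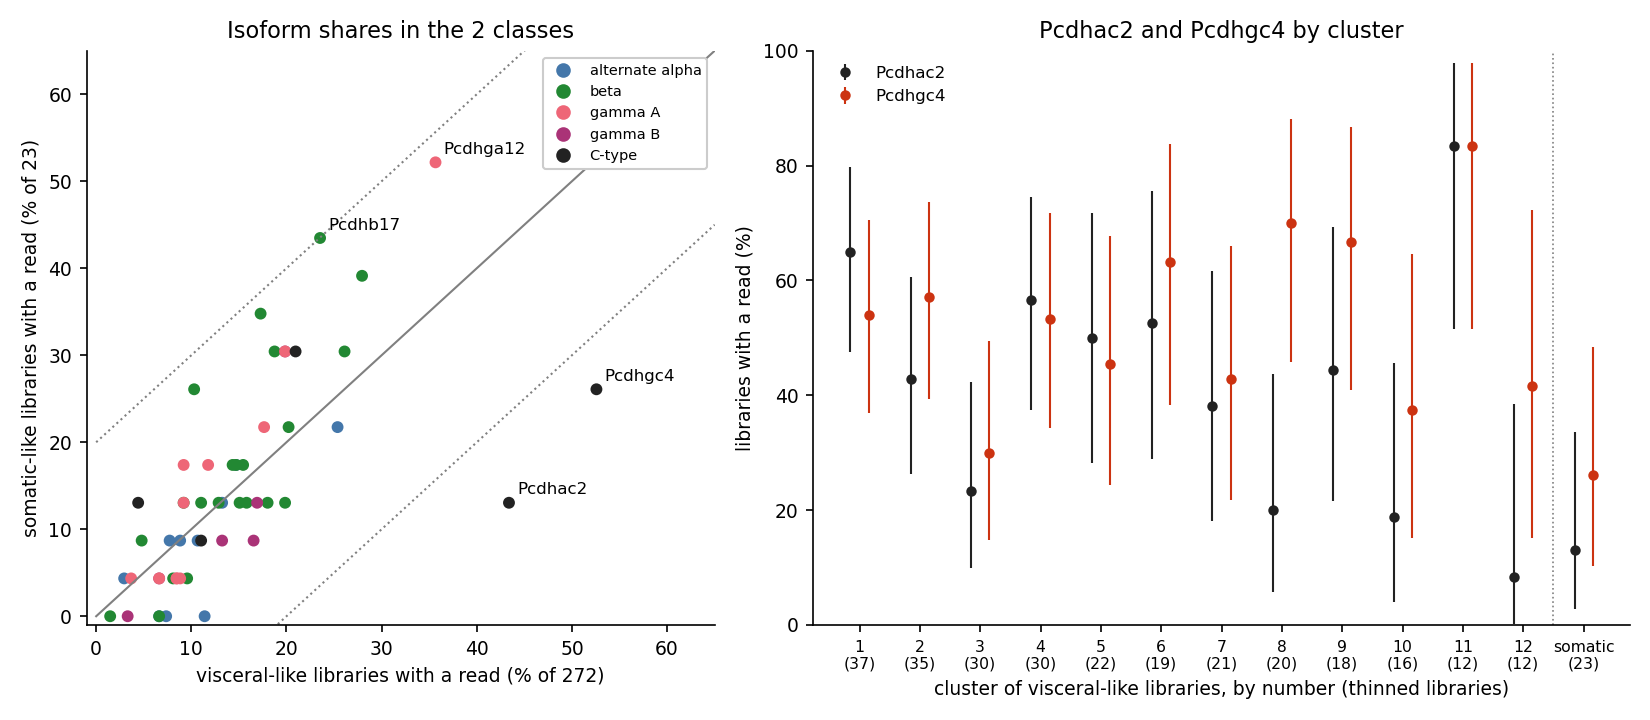
Left, percent of the 23 somatic-like (y axis) against the 272 visceral-like (x axis) thinned libraries with a read of each isoform, with the line of equality and dotted lines 20 points away; Pcdhac2 and Pcdhgc4 lie below. Right, percent of libraries with Pcdhac2 (black) and Pcdhgc4 (red), with exact 95% intervals, in 12 clusters of visceral-like libraries and in the somatic-like libraries; cluster 12 has the lowest Pcdhac2 share, 8.33%.

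The visceral-like libraries were clustered once more on their own, again without the members, which gave 12 clusters of 12 to 42 libraries. Shares of isoforms differed between these clusters, though wide ranges were less frequent than over all genes, as given below. The share of Pcdhac2 ran from 8.33% (0.211 to 38.5) in cluster 12, led by Pde5a, Fign and Cntnap4, and 18.8% (4.05 to 45.6) in cluster 10, led by Cacng3 and Kcnk13, to 64.9% (47.5 to 79.8) in cluster 1, led by Rgs4 and Npy2r, and 83.3% (51.6 to 97.9) in cluster 11, led by Pde5a. The intervals of clusters 11 and 12 did not overlap, nor did those of clusters 11 and 3 (23.3%, 9.93 to 42.3) or 11 and 8 (20.0%, 5.73 to 43.7). These clusters were set side by side for their high or low values, and such gaps were not counted over all genes. The share of Pcdhac2 in the somatic-like libraries (13.0%) was thus within the range over the visceral-like clusters. Pcdhgc4 ran from 30.0% (14.7 to 49.4) in cluster 3, led by Ifi202b and Atf3, to 83.3% (51.6 to 97.9) in cluster 11, and its 26.1% in somatic-like libraries was below all 12 clusters, with an interval that overlapped those of 11 of them. Cluster 11 also had the highest number of isoforms, a median of 11 (8 to 13) over 12 libraries, against 5 to 9 in the other clusters, and 2 of its 12 libraries were in the 16 pairs. The median number of genes with a read in its thinned libraries was 10608.5, against 9402 to 11702.5 in the others.

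Over the 12 clusters the range of the share was at least 40 points for 9 of the 54 isoforms, against 26.2% of all genes. The exact intervals of shares in the smallest clusters, of 12 libraries, are wide. The isoforms with the widest ranges were Pcdhac2 (75.0 points), Pcdhgc4 (53.3 points), Pcdhb18 (50.0 points) and Pcdhb16 (47.4 points). For Pcdhga12 the share ran from 22.7% in cluster 5 to 52.6% in cluster 6. Of the 3 isoforms found in over 40% of libraries, the 2 C-type ones had the wider ranges. The difference in range was not tested.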

How the data were processed

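Smart-seq2 libraries of single sorted nuclei were made with 22 cycles of amplification, per the labels' protocols. The deposited table holds raw read counts per gene, 29779 genes by 383 nuclei, made by the authors and not normalised. Per the submitters' processing notes, the build was GRCm38 and the tools included bcl2fastq, STAR, Picard, edgeR and Seurat 3.0, with no roles given. How reads were counted, with which annotation and whether by strand, is not given in the sources used here.

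Counts were used as deposited. Libraries with at least 1000 genes with a read were kept, and a gene was detected with at least 1 read. For co-detection and classes, libraries were thinned to 500000 reads without replacement, and 21 shallower ones were left out. Shares have exact Clopper-Pearson 95% intervals and summed joint findings exact Poisson ones, for counting error only. Clusters were built with scanpy 1.11.5 on 2000 variable genes, members left out, with 15 components, 10 neighbours and Leiden resolution 1. A cluster was somatic-like or visceral-like by the larger mean marker share, where cholinergic markers led. Doublets were not called. A difference between classes counted at 20 percentage points. No test and no p-value was computed, since the series is 1 sample. Scripts were tested on simulated data. The members, lists and rules were chosen with earlier results of these data known. Named were the C-type isoforms, in each alternate group the 3 most and 2 least often found, isoforms past the 20-point rule, the 5 highest and 5 lowest pairs, 7 listed regulators and partners with any listed gene past the rule, and Chat, Slc18a3 and Slc5a7. Pcdhb19, the block of beta genes and genes on the opposite strand were named after their values were seen. First exons came from GENCODE M21, and shared 50-base stretches were sought among the first exons of the members only. No sequences are printed here.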

Additional observations from a re-analysis of the deposited data

Results flagged for a closer look

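Among the 67 libraries with fewer than 1000 genes, which entered no comparison, 8 held a read of at least 1 isoform (11.9%, exact interval 5.30 to 22.2), above the 4.48% that a floor of 3 libraries gives. These 8 libraries held 9 isoform reads in all and at most 2 isoforms each. The 67 libraries had a median of 2328 reads.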

How the results depend on the processing

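The choice of how many reads count as detection moved the results most. The median of 8 isoforms per library was 6 with at least 5 reads, 5 with at least 10 reads, 7 after thinning to 500000 reads and 6 after thinning to 250000 reads. With at least 10 reads, 21 isoforms in place of 37 reached 10% of libraries. The ratio for pairs in different clusters was 1.04 with at least 5 reads and 0.998 with at least 10 reads, on the other side of 1 from the main 1.10, and the ratio for neighbours was 1.63 with at least 10 reads. The cause was not tested. For somatic-like against visceral-like libraries, the count of isoforms at least 20 points higher was 1 with at least 5 reads (Pcdhb21) and 2 without thinning (Pcdhb9 and Pcdhb17), against 0, and the count lower was 1 with at least 5 reads, 1 without thinning and 1 at 30 points, against 2; each time Pcdhgc4 was the isoform lost. With 1 library per near-identical pair, and without all 28 paired libraries, the count higher was 1 (Pcdhb17); both alternatives, and the one without the cluster with Th, were chosen after seeing the data. Leaving out each block of 96 nucleus numbers in turn gave medians of 8 to 9 isoforms, 227 to 234 distinct combinations, 33.1% to 37.8% of reads on the leading isoform, neighbour ratios of 1.32 to 1.41, and counts of 1 to 3 isoforms higher and 2 lower each time. Those higher were Pcdhb17, Pcdhb21 and Pcdhgc5 without numbers 1 to 96, Pcdhb14 and Pcdhga12 without 97 to 192, Pcdhb17 without 193 to 288 and Pcdhb19 without 289 to 384. In these runs Pcdhac2 was 27.1 to 38.0 points lower and Pcdhgc4 23.4 to 32.5 points lower in somatic-like libraries. In 81 other runs of these main results the value stayed within its interval or within 1.5 times the count. Of the runs on shares of single named isoforms, 327 stayed and 49 moved. Among those that moved was Pcdhga12, from 47.8% to 36.9% after thinning to 500000 reads and 29.0% after thinning to 250000 reads. No paired analysis was possible because all nuclei form 1 group. Depth limits the shares: a library with no read of an isoform may still have held its RNA.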
